A study of Mus musculus with 3 samples.

Results

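The immediate early response genes described here are *Fos*, *Ccn1*, *Nr4a1*, *Zfp36*, *Egr1*, *Jun*, *Junb*, *Atf3*, *Ier2* and *Dusp1*. They were taken as every probe set whose platform annotation gives exactly 1 gene symbol from this list, which found 14 of the 45101 probe sets on the array: 4 for *Ccn1*, 2 for *Jun* and 1 for each other gene. The genes were chosen by earlier results on these same arrays, *Ccn1* and *Fos* having stood out there for low signals in the cardio-renal samples, so their differences between the groups are given as a description, with no test. Expression was measured in total RNA of the kidney left after uninephrectomy (removal of 1 kidney), from male C57BL/6J mice aged 16 weeks. The uninephrectomy-alone group is 1 array and the cardio-renal syndrome group is 2 arrays, called arrays 1 and 2. In the cardio-renal model the abdominal aorta was constricted below the branching of the renal arteries, the nephrectomy followed 2 weeks later, and in both groups the kidney was taken 6 weeks after the nephrectomy. The design text mentions sham operations, but the labels do not say whether the uninephrectomy-alone mice had sham banding, nor whether an array holds RNA of 1 mouse.

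Immediate early genes are switched on within minutes of a stimulus, from transcription factors that already sit in the cell and without new protein synthesis. Growth factor, stretch, calcium and stress signals reach their promoters mainly through serum response factor at CArG boxes and through CREB at cAMP response elements (CRE). Most of their transcripts are short-lived, and several of the proteins, such as the AP-1 subunits and the phosphatase DUSP1, then drive or end the next phase of the response. In kidney the class is best known for a brief rise after ischaemia and other acute injury.

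The promoter windows of 6 members are shown for some of the patterns across the arrays. *Fos*, *Ccn1*, *Nr4a1* and *Zfp36* were dimmer on both cardio-renal arrays, *Junb* was brighter, and *Dusp1* differed mainly in array 1. RefSeq windows of GRCm38.p6, from 250 bases before to 50 after the start site, were matched for 8 of the 10 members. *Egr1*, which differed mainly in array 2, and *Ier2*, which was mixed, were not matched, so their patterns are not among those shown. Each line runs 5′ to 3′ on the strand of the gene. Capitals mark motif matches on either strand: the CRE half-site (TGACG), the full CRE (TGACGTCA, which contains 2 overlapping half-sites), the EGR site (GCGGGGGCG), the TEAD site (CATTCC), the TATA box (TATAAA) and the CArG box. *Fos* lies at chr12:85473640-85473939 (+), *Ccn1* at chr3:145649936-145650235 (-), *Nr4a1* at chr15:101266596-101266895 (+), *Zfp36* at chr7:28379179-28379478 (-), *Junb* at chr8:84978699-84978998 (-) and *Dusp1* at chr17:26508423-26508722 (-).
Fos: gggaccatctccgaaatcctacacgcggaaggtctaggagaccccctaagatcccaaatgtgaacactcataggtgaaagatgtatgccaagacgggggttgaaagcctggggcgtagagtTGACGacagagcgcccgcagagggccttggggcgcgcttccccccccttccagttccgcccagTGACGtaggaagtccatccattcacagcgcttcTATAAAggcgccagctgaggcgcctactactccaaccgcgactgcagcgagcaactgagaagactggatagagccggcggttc
Ccn1: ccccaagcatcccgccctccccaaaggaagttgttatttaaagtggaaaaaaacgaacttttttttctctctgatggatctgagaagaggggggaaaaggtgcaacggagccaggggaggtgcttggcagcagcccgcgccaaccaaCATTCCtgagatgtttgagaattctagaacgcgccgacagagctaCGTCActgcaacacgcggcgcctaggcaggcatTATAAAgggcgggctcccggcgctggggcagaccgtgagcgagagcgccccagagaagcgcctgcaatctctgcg
Nr4a1: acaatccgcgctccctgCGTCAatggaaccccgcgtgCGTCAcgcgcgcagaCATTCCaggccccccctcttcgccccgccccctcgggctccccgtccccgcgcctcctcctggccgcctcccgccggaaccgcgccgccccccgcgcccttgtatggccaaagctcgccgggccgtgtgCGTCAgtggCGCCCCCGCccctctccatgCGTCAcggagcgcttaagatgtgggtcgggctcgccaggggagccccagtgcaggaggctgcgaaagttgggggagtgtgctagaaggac
Zfp36: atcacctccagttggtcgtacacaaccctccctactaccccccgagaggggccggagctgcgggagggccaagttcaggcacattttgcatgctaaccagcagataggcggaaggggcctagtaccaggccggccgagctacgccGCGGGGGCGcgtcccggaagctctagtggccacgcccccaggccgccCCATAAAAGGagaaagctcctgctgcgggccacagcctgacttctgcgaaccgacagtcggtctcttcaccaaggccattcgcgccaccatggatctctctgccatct
Junb: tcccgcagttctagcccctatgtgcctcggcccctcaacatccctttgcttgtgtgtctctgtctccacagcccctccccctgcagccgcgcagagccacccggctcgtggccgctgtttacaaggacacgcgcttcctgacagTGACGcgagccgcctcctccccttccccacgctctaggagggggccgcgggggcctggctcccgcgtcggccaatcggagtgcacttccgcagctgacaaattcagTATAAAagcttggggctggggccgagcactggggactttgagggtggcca
Dusp1: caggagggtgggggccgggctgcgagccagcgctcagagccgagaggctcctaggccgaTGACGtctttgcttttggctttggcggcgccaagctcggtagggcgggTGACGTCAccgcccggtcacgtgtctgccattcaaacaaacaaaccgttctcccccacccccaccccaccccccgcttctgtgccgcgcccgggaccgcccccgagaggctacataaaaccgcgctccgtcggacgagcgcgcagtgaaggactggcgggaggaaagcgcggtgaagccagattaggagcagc

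CRE half-sites were in 6 of the 8 windows, against 20.8% of all 32851 promoter windows of the same length. *Fos* held them at positions -129 and -66 from the start site, ahead of a TATA box at -33. *Ccn1* held 1 at -58, between a TEAD site at -103 and a TATA box at -25; TEAD proteins are the DNA-binding partners of YAP, a stretch-responsive coactivator. *Nr4a1* held 4 half-sites, at -233, -213, -69 and -40, with an EGR site at -60. The full CRE, present in 1.79% of all windows, was found in *Dusp1*, at -143, and in no other member matched. The CArG box, in 1.63% of all windows, was found in *Zfp36*, at -58, which also held an EGR site at -105; EGR sites were in 2 of the 8 windows and in 2.91% of all. TEAD sites were in 2 windows (14.7% of all) and TATA boxes in 3 (13.6% of all). The TATA match of *Junb* began at position 1, the start site itself, not ahead of it as in *Fos* and *Ccn1*. The AP-1 site (TGAGTCA) was in none of the 8 and in 5.2% of all windows, and the *Jun* window held no match to any of these motifs. These letters were searched in this window alone, and a match is not a measured binding site.

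**Figure D1:**
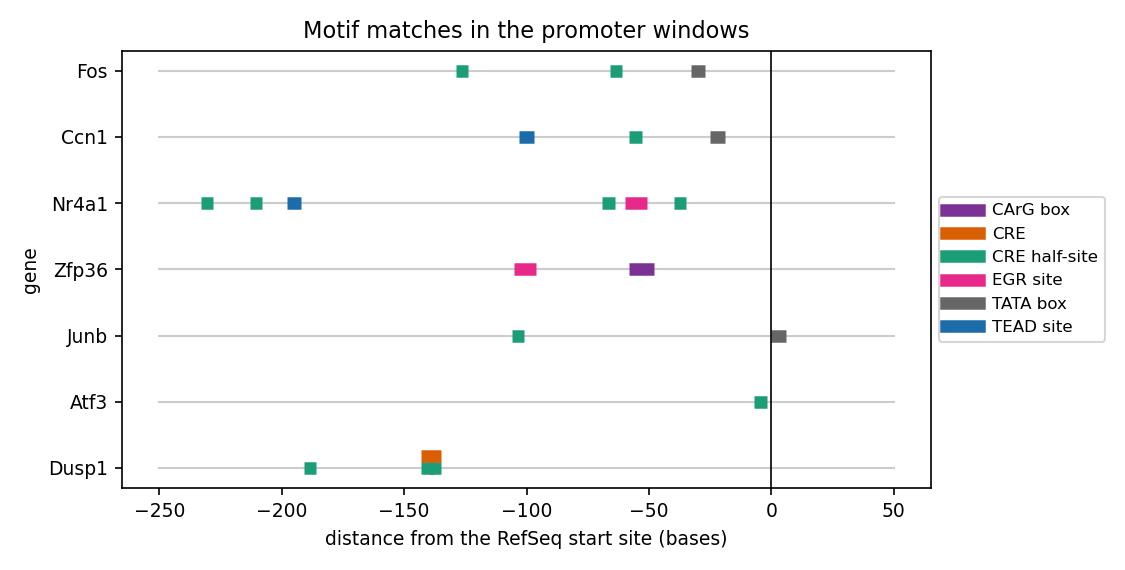
Motif matches along the promoter windows of the 7 members with at least 1 match; the x axis is the distance in bases from the RefSeq start site (vertical line), and each coloured block is a match on either strand. *Nr4a1* holds 4 CRE half-sites, and the full CRE of *Dusp1* (drawn above the line) and the CArG box of *Zfp36* each occur in 1 window.

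The values are MAS5 signals, which are comparable for a probe set across arrays but not between probe sets. Differences are given as log2(signal + 28.8), a scale that understates the change of dim probe sets, as the mean of both cardio-renal arrays minus the uninephrectomy array with the SD over those 2 arrays. Both differences are taken against the same single array. Of the 14 immediate early probe sets, 11 were lower in both cardio-renal arrays, 2 were higher in both and 1 was mixed. Over the 22493 probe sets bright enough to be compared, 29.7% were lower in both and 31.8% higher in both. All 14 passed this filter on the mean, and 13 of them were above its level on every array. At least 2-fold lower in both arrays were 4 of the 14, all from *Fos* and *Ccn1*, against 0.0533% of all compared probe sets, which is 12 probe sets. In array 2 alone 7 of the 14 were at least 2-fold lower, with *Nr4a1*, *Egr1* and the remaining *Ccn1* probe set added, and in array 1 alone 4; over all compared probe sets these numbers were 47 and 119. Without probe sets that may bind other transcripts or are shared by transcripts, *Fos* was the only one of 10 past 2-fold in both. The members were picked on this contrast, so nothing is read from these shares. The median difference over the 14 was -0.54 in array 1 and -1.02 in array 2, beside 0.020 and -0.0062 over all compared probe sets.

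**Figure D2:**
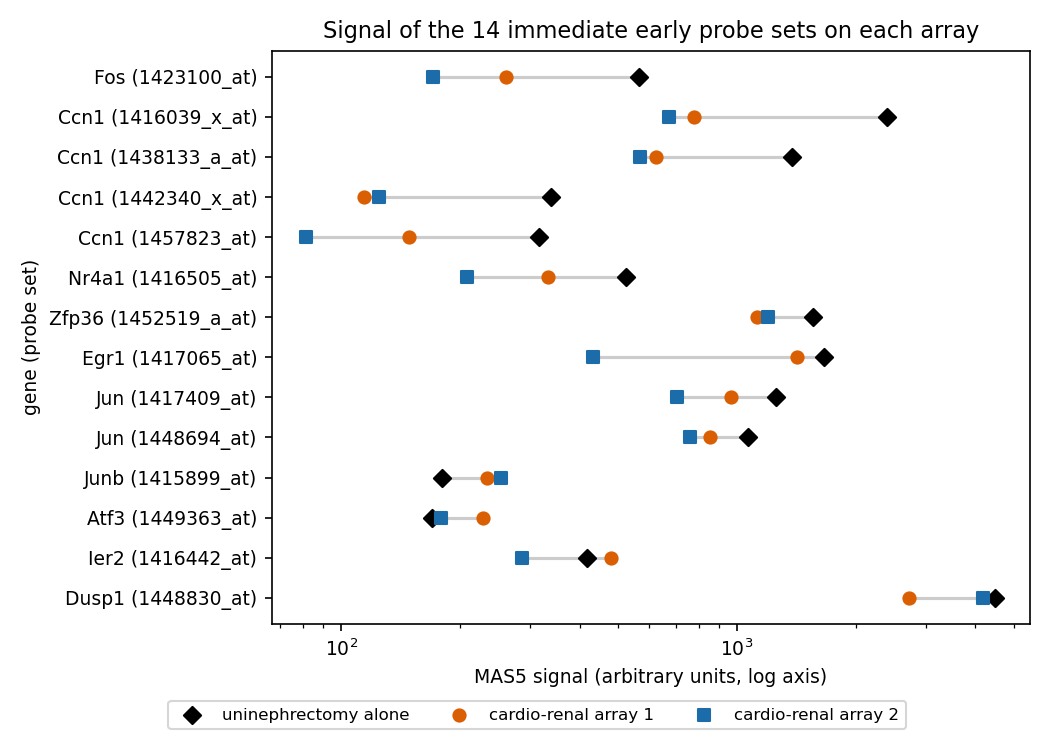
MAS5 signal (arbitrary units, log axis) of each of the 14 immediate early probe sets on the uninephrectomy array (diamond) and on cardio-renal arrays 1 (circle) and 2 (square). The uninephrectomy array is the highest of the 3 for 11 probe sets, the lowest for *Junb* and *Atf3*, and between the others for *Ier2*.

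Among the transcription factors of the AP-1 complex, which pairs a Fos with a Jun protein or 2 Jun proteins, the members differed in direction. The *Fos* probe set 1423100_at gave 564.1 with uninephrectomy alone, against 260.1 in cardio-renal array 1 and 171 in array 2. Both cardio-renal signals were thus under the single control value, at 46.1% and 30.3% of it. The difference was -1.30 ± 0.38 (SD, n = 2). *Jun*, the main partner of Fos, was read by a pair of probe sets. 1417409_at gave 1258, 968 and 704.1, a difference of -0.59 ± 0.31, and 1448694_at gave 1066, 855.2 and 760.7, a difference of -0.39 ± 0.12 (SD, n = 2 for both). The pair put the arrays in the same order, with the uninephrectomy array highest and array 2 lowest. *Junb*, a Jun relative that often restrains Jun, went the other way, with signals of 179.9, 233.7 and 253.3. Its cardio-renal signals were 129.9% and 140.8% of the control and close to each other, a difference of 0.38 ± 0.07 (SD, n = 2). *Atf3*, a stress-induced factor of the ATF/CREB family that can pair with Jun proteins, had 169.2, 227.9 and 178.9. It was higher than the control mainly in array 1, by 0.37, and by 0.069 in array 2, with a mean of 0.22 ± 0.22 (SD, n = 2).

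The other transcriptional regulators were dimmer in array 2 than in array 1, as were *Fos*, *Jun* and *Atf3*, with the widest gap for *Egr1*. *Nr4a1*, an orphan nuclear receptor, had signals of 524.5, 333.3 and 208.4. It stood at 63.6% of the control in array 1 and 39.7% in array 2, a difference of -0.92 ± 0.43 (SD, n = 2). *Egr1*, a zinc-finger factor whose gene is a classic target of serum response factor, had 1655, 1420 and 432.8. Array 1 kept 85.8% of the control signal and array 2 only 26.2%, so the mean difference of -1.04 was smaller than its SD of 1.17 (n = 2). *Egr1* was the only one of the 14 probe sets at least 2-fold apart between the cardio-renal arrays, as were 0.974% of all compared probe sets. *Ier2*, a short nuclear protein of the first wave of the response, had 417.2, 480.2 and 286. The control lay between the cardio-renal arrays, whose differences from it were 0.19 and -0.50.

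*Ccn1*, formerly *Cyr61*, encodes a matricellular protein that signals through integrins, and its 4 probe sets gave the most repeated result. 1416039_x_at had signals of 2391, 777.9 and 671.9, which are 32.5% and 28.1% of the control. The difference was -1.69 ± 0.14 (SD, n = 2), the largest in size among the 14. 1438133_a_at had 1380, 624.8 and 567.4 (-1.17 ± 0.09), and 1442340_x_at had 339.5, 114 and 124.4 (-1.32 ± 0.07). 1457823_at had 315.7, 148.4 and 81.6 (-1.30 ± 0.48), and on array 2 it was below the level of the filter. On every one of these probe sets the control array was more than 2 times as bright as either cardio-renal array. They read 1 gene in the same 3 RNA samples and are not replicates: 1442340_x_at and 1457823_at come from the same source sequence. The suffix _x_at marks probes that may bind other transcripts and _a_at marks probes shared by transcripts of 1 gene; 1457823_at has neither mark.

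*Zfp36* and *Dusp1*, which act in mRNA decay and feedback, were lower in both cardio-renal arrays, by smaller amounts than *Ccn1*. *Zfp36* encodes tristetraprolin, which binds AU-rich elements and speeds the decay of short-lived transcripts. Its signals were 1559, 1122 and 1197, or 72% and 76.8% of the control, a difference of -0.42 ± 0.06 (SD, n = 2). The cardio-renal arrays lay close together here, although the difference was less than 2-fold. *Dusp1* encodes a nuclear phosphatase that inactivates MAP kinases. Its signals were 4494, 2721 and 4189, so array 1 stood at 60.5% of the control and array 2 at 93.2%. The mean of -0.41 was smaller than the SD of 0.44 (n = 2), and array 1 was the lower one, the reverse of *Egr1*.

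**Figure D3:**
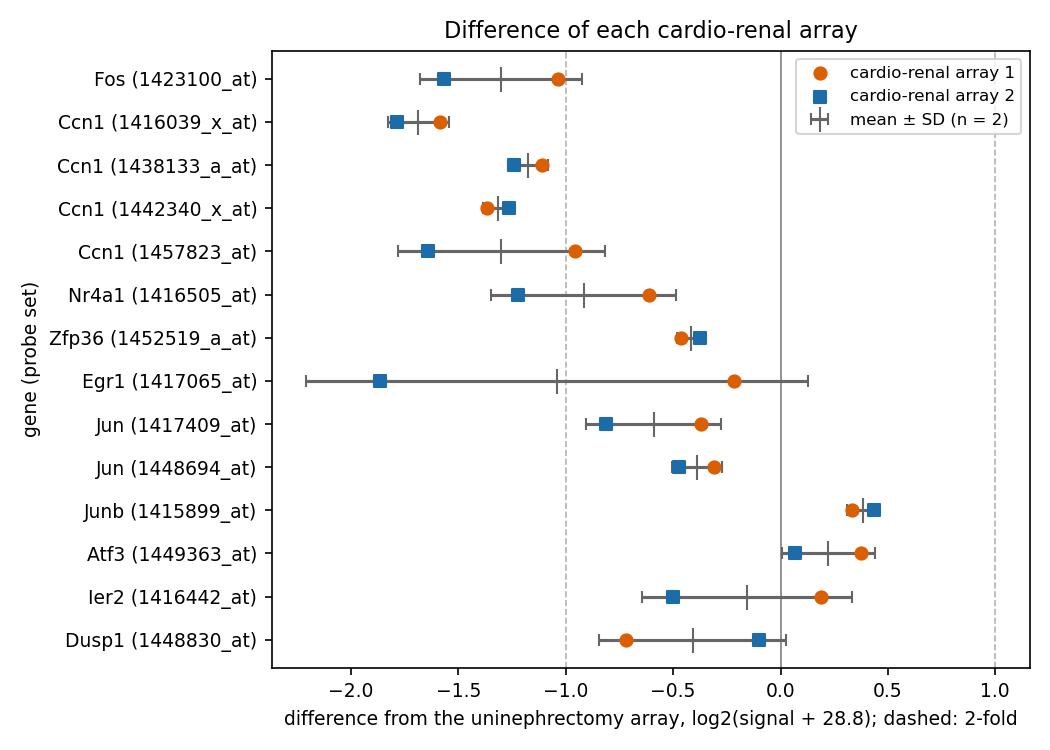
Difference of cardio-renal arrays 1 (circles) and 2 (squares) from the uninephrectomy array for each immediate early probe set, on the log2 scale, with the mean and SD over the 2 arrays; dashed lines mark 2-fold. *Fos* and 3 *Ccn1* probe sets lie beyond 2-fold in both arrays, and *Egr1* has the widest gap between arrays.

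Facts of the whole arrays frame these values. The actin control's 3'/5' signal ratio was 1.72, 1.72 and 1.73 on the uninephrectomy array and arrays 1 and 2. The SD of the log2 difference over all compared probe sets was 0.32 between the cardio-renal arrays, 0.32 between array 1 and the control and 0.26 between array 2 and the control. Kidney markers were bright, with summed signals of 8 proximal tubule markers of 115716, 100871 and 120142 and of 4 thick ascending limb markers of 53012, 51195 and 53161. Array 1 stood apart in 6 androgen-dependent tubule genes, whose summed signal was 83661, 40177 and 84474. Their median difference was -2.59 in array 1 and 0.030 in array 2. *Kap*, with 39782, 29674 and 40588, is in both this list and the proximal tubule list, so their sums are not separate. Of 14 heart muscle markers, 13 were higher and 1 lower in both cardio-renal arrays, with summed signals of 715.2, 2808 and 2168. Over all compared probe sets, which passed the signal filter, 31.8% were higher and 29.7% lower in both. Markers were not filtered by signal, so these shares are not a like background for them. Some control values were low, such as 9.9 for *Myh6* and 3.8 for *Mb*. Of 7 skeletal muscle markers, 5 were higher and 0 lower in both, with summed signals of 262.1, 360.9 and 353.6. *Ckm* is in both muscle lists. Summed signals of 8 smooth muscle and fibroblast markers were 10047, 9876 and 7725, and of 6 endothelial markers 8336, 8145 and 7423. Those of 7 leukocyte markers were 5024, 4057 and 4828, of which *Csf1r* gave 3708, 2845 and 3683. Those of 5 adipocyte markers were 7699, 12725 and 10656, of which *Car3* gave 3702, 8260 and 6995 and *Fabp4* 3829, 4226 and 3424. Such sums follow their brightest probe sets. The part of any of these array facts in the immediate early values was not tested. In RNA of whole kidney, fewer cells of a type and less RNA per cell cannot be told apart.

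**Figure D4:**
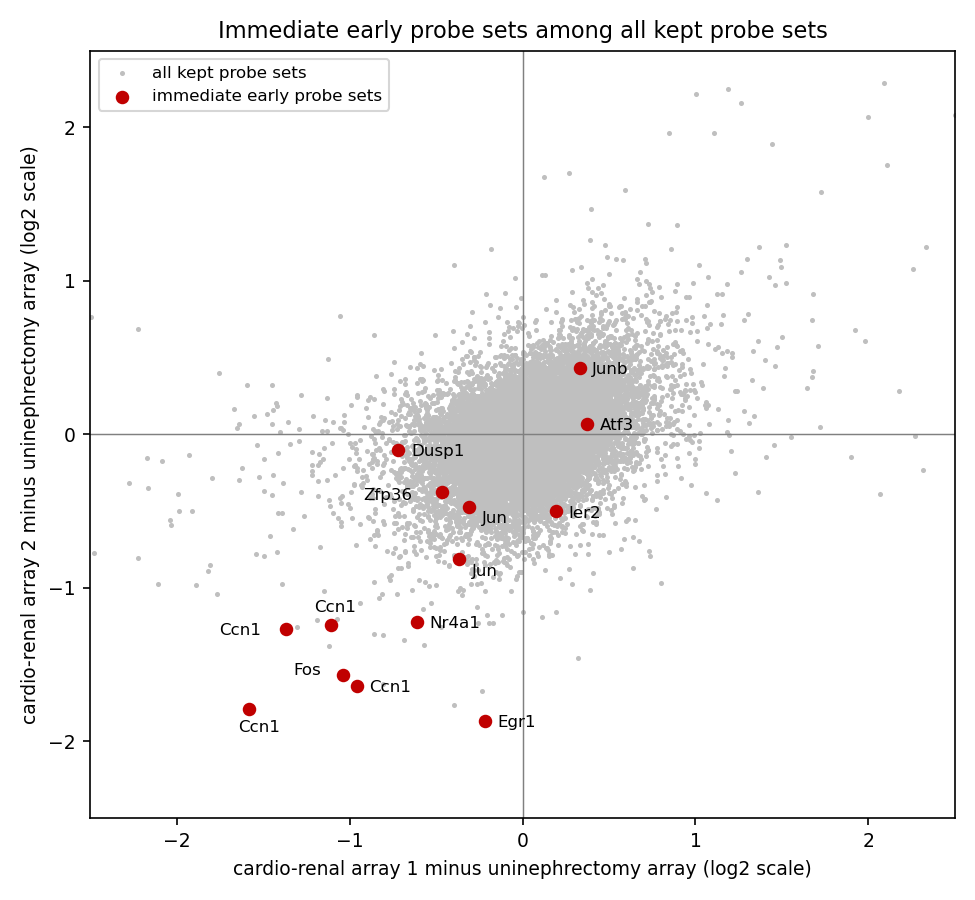
Each point is a probe set, with its difference from the uninephrectomy array on the log2 scale in cardio-renal array 1 (x axis) and array 2 (y axis); grey points are all 22493 compared probe sets, 24 of which lie outside the plotted range, and red points are the 14 immediate early ones. Both axes share the control array, so points spread along the diagonal even without a difference between the groups.

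Other immediate early genes formed a list of 62, of which 46 were compared, and which leaves out the members chosen on this contrast. Each gene was read by its brightest probe set; 16 (34.8%) were higher on both cardio-renal arrays and 13 (28.3%) lower, where 30.7% and 29.7% of all 11144 compared genes were. Their median differences were 0.21 in array 1 and -0.099 in array 2. By limma's test, Benjamini-Hochberg adjusted, 0 of the 46 passed, and 7 had an unadjusted p under 0.05; over all genes 0 passed (0%) and 280 had such a p, and over all compared probe sets 0 passed and 625 did. *Klf10*, a TGF-beta-induced repressor, had signals of 294.6, 509.3 and 597.5, a difference of 0.84 ± 0.15 (SD, n = 2). *Gadd45g*, a growth arrest and stress gene, had 828.8, 1249 and 1281, a difference of 0.59 ± 0.02. On the lower side, *Csrnp1*, a nuclear protein induced by AXIN1, had 175.5, 102.3 and 72.4 (-0.83 ± 0.26), and *Rcan1*, an inhibitor of calcineurin, had 5683, 3629 and 3562 (-0.66 ± 0.02). The limma adjusted p of each of these 4 was 0.9998, and the lowest over all genes was 0.154.

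Some family relatives of the members, picked by kinship, were also read, and those of *Dusp1* are given with the feedback genes. *Jund*, the Jun protein of resting cells, had 2771, 2401 and 2348 (-0.22 ± 0.02), and *Fosl2*, a Fos relative, had 342.3, 428.4 and 350 (0.17 ± 0.19). *Ccn2*, the connective tissue growth factor gene and a paralog of *Ccn1*, had 3574, 4116 and 2734, above the control in array 1 and below it in array 2. *Ccn4*, with 153.7, 171.3 and 80.6, was the other of 2 genes compared from a CCN family list of 5. *Nr4a2* and *Ier3* split in the same way, with signals of 121.7, 146.3 and 81.5 and of 2174, 2769 and 1402. *Zfp36l1* and *Zfp36l2*, which also bind AU-rich elements, stood at -0.20 ± 0.14 and -0.14 ± 0.01. Across the AP-1 and ATF/CREB list, 4 of 16 compared genes (25%) were lower in both arrays and 4 (25%) higher, where 29.7% and 30.7% of all genes were. Its lowest was *Atf4*, the amino acid response factor, at -0.54 ± 0.11 with signals of 4530, 2943 and 3271; *Batf3* stood at 0.38 ± 0.10 and *Mafk* at 0.16 ± 0.0046.

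Genes that carry signals to immediate early promoters included 12 of 34 (35.3%) below the control on both arrays and 9 (26.5%) above it, beside 29.7% and 30.7% of all genes, with medians of -0.015 and -0.026. *Hbegf*, a ligand of the EGF receptor, had 1186, 815 and 1002 (-0.38 ± 0.20), whereas the receptor gene *Egfr* had 894.4, 1266 and 1164 (0.43 ± 0.08). *Med23*, a Mediator subunit used by ELK1, stood at 0.34 ± 0.06, the coactivator gene *Crebbp* at -0.28 ± 0.13 and *Srf*, serum response factor itself, at -0.18 ± 0.08. A list of targets of serum response factor with MRTF, and of YAP, also held *Yap1*, *Wwtr1* and *Tead1*, which are regulators. It included 10 of 26 (38.5%) below the control on both arrays and 1 (3.8%) above it, beside 29.7% and 30.7% of all genes. The regulators *Yap1* and *Wwtr1* were among those below. The median was 0.027 on array 1 and -0.23 on array 2. Those named by rule were *Tpm1* (-0.28 ± 0.06), *Tgfb1i1* (-0.21 ± 0.02), *Axl* (-0.21 ± 0.07) and the regulator *Yap1* (-0.15 ± 0.0034).

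Genes of feedback and mRNA decay included 15 of 25 (60%) below the control on both arrays and 2 (8%) above it, beside 29.7% and 30.7% of all genes. Their medians were -0.061 on array 1 and -0.15 on array 2. The 2 above the control were relatives of *Dusp1*, *Dusp7* (0.12 ± 0.04) and *Dusp8* (0.22 ± 0.03). Of its other relatives compared, *Dusp4* was lower in both arrays (-0.12 ± 0.15), and *Dusp6* and *Dusp16* were mixed. *Khsrp*, an AU-rich element binding decay factor, had 609.4, 456 and 338.7 (-0.60 ± 0.28), read by a probe set that may bind other transcripts. *Tob1*, an antiproliferative adaptor of deadenylation, had 9388, 7296 and 6601 (-0.43 ± 0.10). *Nab2*, a corepressor of EGR proteins, stood at -0.32 ± 0.08, and *Elavl1*, the stabilising protein HuR, at -0.26 ± 0.01. With limma 0 genes of the 5 larger lists passed the adjusted p; with an unadjusted p under 0.05 there were 7, 1, 1, 0 and 2 in the order described.

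**Figure D5:**
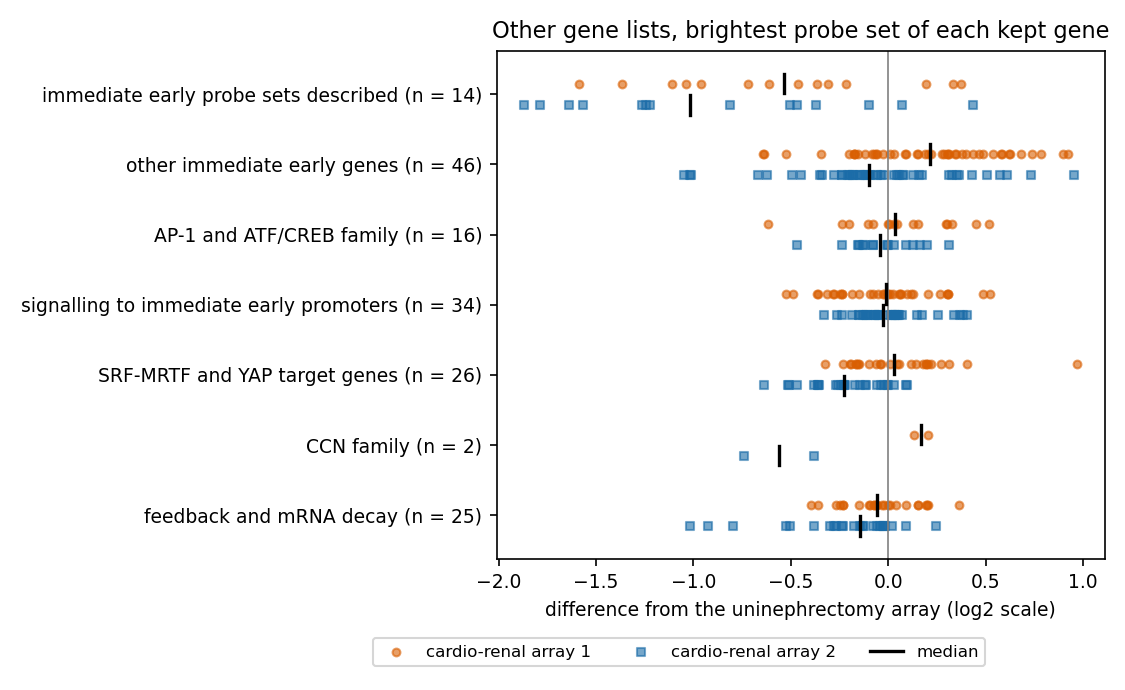
Difference from the uninephrectomy array (log2 scale) in cardio-renal arrays 1 (circles) and 2 (squares) for the immediate early probe sets described and for each other list, 1 point per kept gene, with black bars at the medians. The described probe sets, with 4 of *Ccn1* and 2 of *Jun*, have medians of -0.54 and -1.02. The 46 other immediate early genes have 0.21 and -0.099. The median of the members' mean differences is -0.75 over the 14 probe sets and -0.50 with 1 probe set per gene. The members were chosen on this contrast, so nothing is read from the gap.

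Genes most like *Fos* and *Ccn1* were found by the distance between the pairs of differences in arrays 1 and 2, so over 3 samples, among probe sets of other named genes with the members themselves and predicted genes left out. Nearest to *Fos* among these were *Slco4a1* (distance 0.24), *Hspa1a* (0.32), *Rarres2* (0.36), *Tmod1* (0.48) and *Sntb2* (0.54). *Slco4a1*, an organic anion transporter gene read by a probe set that may bind other transcripts, had signals of 747, 415.1 and 222.3, and *Hspa1a*, an inducible heat shock protein gene, had 7929, 4348 and 3201. Nearest to *Ccn1* (1416039_x_at) among these were *Rarres2* (0.60), *Ang* (0.77), *Slco4a1* (0.80), *Rnase4* (0.86) and *Hspa1a* (0.87). *Rarres2* encodes chemerin and was found through a different probe set in each search. The one near *Ccn1* had 1909, 756.4 and 783.9. Both *Rarres2* probe sets and that of *Ang* are marked _s_at, which the processing section below counts among those that may cross-hybridise.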

How the data were processed

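Per the labels, biotin-labelled cRNA was made from 250 ng of total RNA with a 3' in vitro transcription kit. The deposited values are intensities, linear MAS5 signals per the submitters' processing notes, with no version stated there. Each array's mean trimmed by 2% at both ends was 500, so nothing was rescaled. There are no detection calls, and the number of arrays limits the precision.

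Probe sets were named from the platform annotation, and a check by Entrez ID against a RefSeq table of GRCm38.p6 changed 0 symbols: 34958 had 1 symbol and 932 several. Signals became log2(signal + 28.8), where 28.8 is the typical (median) 25th percentile of an array; 22493 probe sets without controls reached the filter, a mean of 7.02, the median of all. limma 3.58.1 in R 4.3.3 (lmFit, eBayes with trend, two-sided, Benjamini-Hochberg at 0.05) was fitted to all of them, and to the brightest probe set of each of 11144 genes, with 1 residual degree of freedom from the cardio-renal arrays; its p-values rest on the spread of that pair, which may be technical. The fit was tested on simulated data. Up to 4 genes per list were named, those whose smaller difference was largest among genes of one sign in both arrays, and 5 per likeness search; relatives of the members, *Srf* and the unnamed probe set below were added. The members and lists were chosen with earlier results of these data known. Alternatives were the offset, filter, normalization, probe set choice, limma's trend and each cardio-renal array.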

Additional observations from a re-analysis of the deposited data

How the results depend on the processing

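No paired analysis was possible because the control group is 1 array. Probe sets listed below as able to cross-hybridise were all those marked _x_at, _s_at or _a_at. That group includes the _a_at sets, whose probes are shared by transcripts of 1 gene. *Ier2* changed sign without array 2, to 0.19; the other member probe sets kept their direction in every alternative that retained them. Their median stayed between -1.02 (without array 1) and -0.50 (without probe sets that may cross-hybridise). The number lower in both arrays was 7 of 7 above the upper quartile of signals, 7 of 10 with 1 probe set per gene and 7 of 10 without probe sets that may cross-hybridise, with fewer member probe sets in each. Of the 14, 7 were at least 2-fold lower without array 1 and 4 without array 2, 5 with an offset of 1 or quantile normalization, and 2 with an offset of 100. Without all probe sets marked _x_at, _s_at or _a_at, *Fos* alone remained. That step also left out *Ccn1* 1438133_a_at, which was more than 2-fold lower in both arrays and is not marked for binding other genes.

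Over all probe sets, at least 2-fold lower and higher in both arrays were 12 and 32. These became 6 and 14 with an offset of 100, 60 and 190 with no filter, 6 and 4 above the upper quartile, and 6 and 15 with 1 probe set per gene. Without probe sets that may cross-hybridise 5 were lower. Without array 1 there were 47 lower and 59 higher, and without array 2 there were 119 and 110. The adjusted p of limma was passed by 3 without probe sets that may cross-hybridise, *Actc1*, *Myh6* and the unnamed 1460710_at, all higher, and by 0 without a trend or with a robust one. Causes were not tested beyond the fewer probe sets or arrays used. One control array and MAS5's noise at low signals limit the dim probe sets.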
